A study of Mus musculus with 6 samples.

Results

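The transcription factors that set the lineages of blood cells were followed in RNA-seq libraries of cultured mouse cells labelled FGSC, which stands for female germline stem cells. The group held 10 genes of 24728 with FPKM values (fragments scaled to transcript length and to the mapped fragments of the library), namely Spi1, Runx1, Gata2, Cebpa, Myb, Gfi1, Tal1, Fli1, Ikzf1 and Mitf. They were chosen by gene symbol with the levels of both groups already known. Their differences between the groups are therefore given as descriptions, and nothing is read from the calls that fits over all genes made for them.

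The 3 control and 3 shCTCF samples came from cells of strain C57BL/6 kept for more than 20 passages on inactivated STO fibroblasts, and per the study's methods they had been isolated from ovaries of newborn mice carrying Ddx4-Cre and mT/mG. The shCTCF cells had received a lentivirus with a short hairpin RNA against CTCF, a protein that binds insulators and shapes chromatin loops, followed by puromycin selection. What the control cells received was not given in the sources used here. Nothing states that the replicates were separate cultures, so p-values below measure only the spread between these samples.

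Blood cells arise from stem and progenitor cells under a small set of DNA-binding proteins that act in combination. RUNX1, TAL1, GATA2 and FLI1 are known for the formation and upkeep of the stem cells, MYB and GFI1 for progenitor growth and for repression of alternative fates, PU.1 (encoded by Spi1) and C/EBPα (encoded by Cebpa) for myeloid cells, Ikaros (encoded by Ikzf1) for lymphocytes, and MITF for mast cells and melanocytes. None of these roles is specific to the germline.

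The label was checked against markers first. Of 9 germline genes, 6 stayed under 1 FPKM in every sample, among them the germ cell markers Ddx4, Dazl and Pou5f1, and Dppa3, Gfra1 and Nanos3 were listed at 0. Of the rest, Etv5 was at 14.1 to 17.8 FPKM over all samples. Zbtb16 was at 1.15 to 1.99 FPKM in the controls and 0.281 to 0.291 FPKM in the shCTCF samples. Ifitm3 was at 0 to 1.21 FPKM in the controls and 10.4 to 11.1 FPKM in the shCTCF samples. By RT-PCR, the study reported expression of Ddx4 (as Mvh), Pou5f1 (as Oct4), Ifitm3 (as Fragilis), Dppa3 (as Stella), Gfra1 and Dazl in its cultured FGSCs. It also reported MVH protein by staining. The cause of the difference from these libraries was not tested. All 20 pan-leukocyte genes were above the limit for testing, with a summed level of 2675 to 2788 FPKM in the controls and 2758 to 2902 FPKM in the shCTCF samples. The 14 fibroblast genes, which bear on the feeder layer, summed to 12.4 to 13.1 FPKM in the controls and 23.6 to 24.7 FPKM in the shCTCF samples, and 8 of them stayed under 1 FPKM everywhere. The direction of this sum turned on Col6a1, and the other 13 summed to 12.2 to 13 FPKM in the controls and 8.66 to 9.03 FPKM in the shCTCF samples. The 7 genes of ovarian somatic cells stayed under 1 FPKM in every sample. The blood factors were therefore measured in libraries where 6 of the 9 germline genes stayed under 1 FPKM and leukocyte genes were abundant. Ctcf itself was at 58.2, 56.1 and 53.5 FPKM in control replicates 1, 2 and 3 and at 0.74, 0.55 and 0.629 FPKM in the shCTCF samples.

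Total counts lay between 1686052 (control replicate 2) and 7044272 fragments, so that 3 counts, taken as the floor of detection, stood for 0.426 to 1.779 CPM, where CPM is the count relative to the library's total. A second table from the same libraries holds counts of fragments per transcript, in which a fragment shared by overlapping transcripts was assigned to none. Runx1, Ikzf1 and Cebpa, like Ctcf, had 0 counts in all 6 samples there, and Tal1 had at most 4, so these genes rest on FPKM alone. FPKM listed genes at 0 that every cell uses (3 of 72 ribosomal protein genes, namely Rpl26, Rpl30 and Rps27), and a value of 0 FPKM is therefore given as listed at 0. In bulk samples, fewer cells of a type and less RNA per cell cannot be told apart.

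In the controls Gata2 stood highest of the 10 factors, with 467 to 550 FPKM. It was followed by Myb with 92.1 to 101 FPKM and Ikzf1 with 80.7 to 95.7 FPKM, whose ranges overlapped, and then by Spi1 with 60.4 to 65.3, Fli1 with 50.2 to 55.1, Runx1 with 37.7 to 43.3 and Gfi1 with 31.2 to 32.2 FPKM. Tal1 with 17.9 to 19.5 FPKM and Mitf with 13.6 to 19.1 FPKM overlapped each other, and Cebpa was listed at 0. Among 9696 genes with a control mean of at least 1 FPKM, Gata2 was ranked 126 and Mitf, the lowest detected factor, was ranked 4374.

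In the shCTCF samples Gata2 was still first, with 547 to 568 FPKM. Runx1 came second with 76.1 to 77.3 FPKM, and Ikzf1, Spi1 and Fli1 followed. Myb and Gfi1 were the lowest detected factors, at 5.63 to 6.38 and 1.57 to 2.32 FPKM. Myb moved from rank 774 of all genes to rank 7144 and Gfi1 from rank 2614 to rank 9242, while Gata2 was at rank 126 and rank 125. No ranges of neighbours in this order overlapped in the shCTCF samples.

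**Figure D1:**
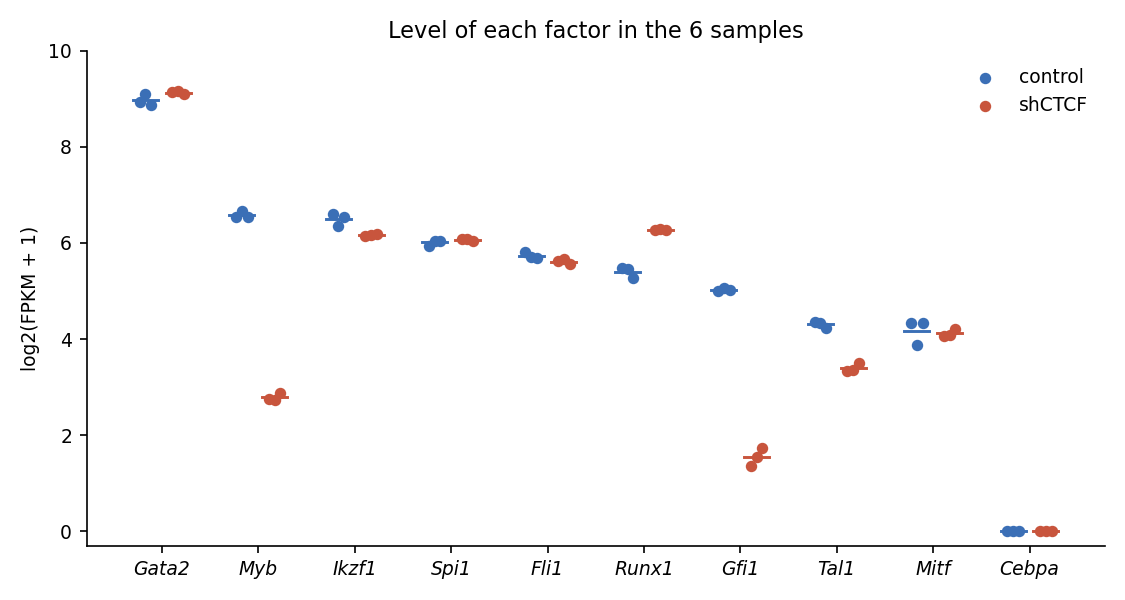
Level of each factor as log2(FPKM + 1) on the vertical axis, for 3 control (blue) and 3 shCTCF (red) samples, with the genes ordered by their control mean. Points are samples and horizontal lines are group means of the log values. The Myb and Gfi1 points of the 2 groups lie far apart, and the Spi1, Gata2 and Mitf points overlap.

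Of the 9 factors whose mean reached 1 FPKM, 5 were lower in every shCTCF sample than in every control (Myb, Gfi1, Tal1, Ikzf1, Fli1), 1 was higher (Runx1) and 3 overlapped (Spi1, Gata2, Mitf). Over the 9974 genes tested, the groups did not overlap with shCTCF lower for 45.8% and with shCTCF higher for 30.8%. By limma on log2(FPKM + 1) at an adjusted p of 0.05, 4 factors were called lower (Myb, Gfi1, Tal1, Ikzf1) and 1 higher (Runx1), against 44.2% and 28.8% of all genes. By edgeR on counts, 5 factors could be tested and 2 were called lower (Myb, Gfi1) and 1 higher (Spi1), against 34.3% and 34.8% of 7339 genes. Nothing is read from these shares, since the contrast was known when the genes were chosen. Without control replicate 2, the smallest library, 5 factors were called lower and 2 higher on FPKM, with Mitf and Gata2 added, while the calls over all genes were 47.8% lower and 31.3% higher.

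The FPKM of the typical gene were lower in the shCTCF samples, and the median log2 fold change (shCTCF over control) of all genes tested was -0.17. That of the 9 factors was -0.12, and it was 0.06 after each sample had been brought to 1 common median FPKM. The 5 factors that could be tested on counts had a median of 0.05 there and of -0.12 on FPKM. Under the scaling Ikzf1 lost its call and Spi1 and Gata2 were called higher, so that 3 factors were lower and 3 higher. The calls over all genes shifted the same way, to 36.2% lower and 34.9% higher. The differences of Myb, Gfi1, Tal1 and Runx1 had the same sign under each scaling of the FPKM.

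**Figure D2:**
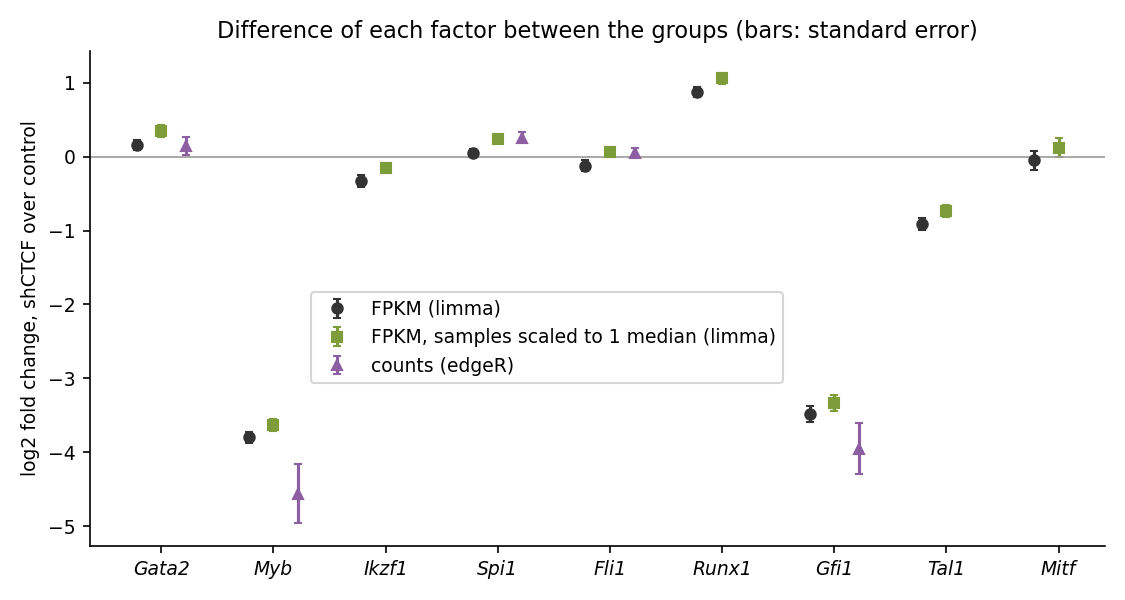
Log2 fold change, shCTCF over control, of the 9 detected factors on the vertical axis. Circles are FPKM as deposited, squares FPKM after scaling each sample to the same median and triangles counts (5 factors only), and bars are standard errors. Fli1 lies at -0.12 on deposited FPKM and at 0.06 after the scaling, while Myb and Gfi1 lie at -3.33 or below in every fit shown.

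Myb encodes the c-MYB activator of progenitor cells and lies at chr10:20844736-20880790 of mm9 on the minus strand. Its FPKM were 92.3, 101 and 92.1 in control replicates 1, 2 and 3 and 5.73, 5.63 and 6.38 in the shCTCF samples. Every shCTCF value was far under every control value. The means were 95.1 ± 5.07 and 5.92 ± 0.406 FPKM (SD, n = 3 in each group), a 16.1-fold lower level and a log2 fold change of -3.80 ± 0.08 (SE). Among all genes tested, 0.952% had a larger absolute log2 fold change.

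The counts of Myb were 80, 42 and 96 in the controls, against 3, 3 and 4 in the shCTCF samples. These samples were at or just above the floor of 3 counts. All counts of Myb belonged to its transcript with 16 exons, which had 26.1% of the gene's FPKM in the controls. The transcript with 15 exons had 0 counts in every sample, so the count values of Myb describe the other transcript only. Per total counts, the shCTCF sum of 10 was 0.039 of the control sum of 218, with an exact 95% interval of 0.0184 to 0.0731 that covers counting error only. The edgeR log2 fold change was -4.56 ± 0.40. Both transcripts of Myb, which share 1 start, were lower in every shCTCF sample, and the one with 15 exons was at 4.81 to 5.73 FPKM against 68.3 to 72.7 FPKM in the controls.

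Gfi1 encodes a zinc finger repressor that restrains stem cell division and monocyte genes, and it lies at chr5:108145674-108154825 on the minus strand. Its FPKM were 31.2, 32.2 and 31.5 in the controls, compared with 1.57, 1.92 and 2.32 in the shCTCF samples. The groups were well apart and the controls differed little among themselves. The mean changed from 31.6 ± 0.499 to 1.94 ± 0.374 FPKM, 16.3-fold lower, with a log2 fold change of -3.48 ± 0.11.

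The counts of Gfi1 were 61, 15 and 62 in the controls, against 4, 3 and 2 after knockdown, which is again about the floor. The shCTCF sum of 9 was 0.0554 of the control sum of 138 per total counts, with an interval of 0.0248 to 0.108. The edgeR log2 fold change was -3.95 ± 0.35. Its RefSeq transcripts use 2 starts, and both were lower in all shCTCF samples. The one from the distal start was at 10.2 to 20.2 FPKM in the controls and 0.688 to 2.32 FPKM in the shCTCF samples, and the one from the proximal start at 11.3 to 22 FPKM and 0 to 0.88 FPKM.

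The windows from 250 bases before to 50 bases after the starts of Myb and Gfi1 were read from mm9, since the differences in these genes are described above. For comparison those of Tal1 and Runx1 (the start its FPKM were assigned to) are shown with them. The windows were chr10:20880741-20881040 (minus) for Myb, chr5:108154776-108155075 and chr5:108153314-108153613 (minus) for the distal and proximal starts of Gfi1, chr4:114728781-114729080 (plus) for Tal1 and chr16:92697525-92697824 (minus) for Runx1. Each is written 5′ to 3′ on the strand of the gene. Capitals mark matches, on either strand, to the core letters of factors in the group and to the left part of a CTCF site, as spelled out after the sequences.
Myb: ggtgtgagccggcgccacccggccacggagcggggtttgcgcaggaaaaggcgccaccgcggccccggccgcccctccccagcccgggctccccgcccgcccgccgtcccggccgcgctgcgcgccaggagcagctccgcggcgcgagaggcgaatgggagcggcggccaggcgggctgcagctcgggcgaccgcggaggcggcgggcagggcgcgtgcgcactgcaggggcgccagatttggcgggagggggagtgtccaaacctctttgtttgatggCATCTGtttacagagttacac
Gfi1, distal start: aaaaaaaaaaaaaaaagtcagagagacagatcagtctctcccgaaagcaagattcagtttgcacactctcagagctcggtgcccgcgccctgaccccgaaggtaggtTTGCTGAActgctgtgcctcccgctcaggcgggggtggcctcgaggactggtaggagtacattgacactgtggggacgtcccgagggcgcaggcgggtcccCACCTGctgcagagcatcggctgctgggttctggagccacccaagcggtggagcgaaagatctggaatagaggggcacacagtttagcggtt
Gfi1, proximal start: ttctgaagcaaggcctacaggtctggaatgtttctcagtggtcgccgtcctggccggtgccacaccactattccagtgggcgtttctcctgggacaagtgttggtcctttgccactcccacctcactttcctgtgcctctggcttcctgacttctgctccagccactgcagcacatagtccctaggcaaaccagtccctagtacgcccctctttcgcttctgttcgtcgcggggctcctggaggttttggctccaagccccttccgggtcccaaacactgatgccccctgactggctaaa
Tal1: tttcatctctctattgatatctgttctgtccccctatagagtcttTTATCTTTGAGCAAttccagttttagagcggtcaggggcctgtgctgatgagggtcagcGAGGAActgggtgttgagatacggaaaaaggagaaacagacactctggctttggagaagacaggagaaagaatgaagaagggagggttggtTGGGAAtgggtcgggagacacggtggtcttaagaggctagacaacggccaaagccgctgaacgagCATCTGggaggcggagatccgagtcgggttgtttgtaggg
Runx1, proximal start: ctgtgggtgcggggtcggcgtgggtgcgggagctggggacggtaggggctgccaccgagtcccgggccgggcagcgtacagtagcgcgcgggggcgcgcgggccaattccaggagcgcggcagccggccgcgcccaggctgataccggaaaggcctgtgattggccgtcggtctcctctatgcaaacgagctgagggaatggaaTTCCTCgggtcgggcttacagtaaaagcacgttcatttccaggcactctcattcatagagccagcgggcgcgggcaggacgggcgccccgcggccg

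The windows differed in base composition. The Myb window had 75.0% G or C and 40 CpG, above 94.8% of 29043 RefSeq starts in G or C content, and the Runx1 window had 69.0% and 35 CpG. Both Gfi1 windows had 58.0%, and Tal1 had 50.7% with 11 CpG. Of all 29043 windows of this length, 27.5% held GAGGAA, the PU-box core bound by the ETS factor PU.1. Other letters bound by ETS factors were not searched. AGATAA (the zinc finger factors of GATA2's kind) was in 9.8%, TGTGGT (the RUNX proteins) in 15.0% and TGGGAA (Ikaros) in 24.2%. The E-box CAGNTG of TAL1 was in 49.1% and the E-box CATGTG of MITF in 11.9%. The MYB letters TAACNG were in 21.5%, the C/EBP letters TTGCNNAA in 10.0% and the CTCF letters CCACNAGG in 5.2%. Myb held 1 match, to the TAL1 E-box, and the proximal Gfi1 window held none. The Runx1 window held 1, to the PU-box core, and the distal Gfi1 window held 2, neither of them to the PU-box core. Tal1 held 5 matches, with the PU-box core among them. No window of the 5 held the CTCF letters, and matches of different motifs did not overlap. A match is a description of letters and not of a bound site.

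Tal1 encodes a helix-loop-helix factor needed for the first blood stem cells and for red cells, and lies at chr4:114729031-114744360 on the plus strand. Its FPKM were 19.5, 19.2 and 17.9 in the controls, compared with 9.16, 9.21 and 10.4 in the shCTCF samples. The groups did not overlap. The means were 18.9 ± 0.871 and 9.58 ± 0.683 FPKM, a 1.97-fold lower level, and the log2 fold change was -0.91 ± 0.08. It stayed between -0.98 and -0.74 under the other settings tried on FPKM. All of its FPKM were assigned to the transcript of the upstream start, whereas its few counts (2, 0 and 4 in the controls, against 0, 4 and 2 after knockdown) were too low to give a ratio, with an edgeR log2 fold change of 0.02 ± 1.37 when no filter was set.

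Runx1 encodes the DNA-binding subunit of core binding factor and lies at chr16:92601711-92826319 on the minus strand. Its FPKM were 43.3, 43.2 and 37.7 in the controls, compared with 76.7, 77.3 and 76.1 in the shCTCF samples. All shCTCF values were higher. The means were 41.4 ± 3.21 and 76.7 ± 0.626 FPKM, 1.85 times the control level, with a log2 fold change of 0.88 ± 0.07 and 1.06 ± 0.07 after the scaling to the same median. Runx1 is read from a distal and a proximal start, and nearly all FPKM were assigned to the 2 transcripts of the proximal start. The one with 6 exons was at 29.1, 25.2 and 24.5 FPKM in the controls and at 58.8, 58.5 and 55.6 FPKM in the shCTCF samples, and the one with 5 exons at 14.2, 11 and 13.2 FPKM and 17.9, 18.8 and 20.5 FPKM. The transcripts of the distal start were listed at 0 except for 7 FPKM of 1 of them in control replicate 2.

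Gata2 encodes a zinc finger factor of stem cells and mast cells, at chr6:88143885-88157026 on the plus strand. Its FPKM were 486, 550 and 467 in the controls, compared with 564, 568 and 547 in the shCTCF samples. Control replicate 2 overlapped the shCTCF range. The means were 501 ± 43.5 and 560 ± 11.6 FPKM, and the log2 fold change was 0.16 ± 0.07, with 0.35 ± 0.08 after the scaling to the same median. Its counts were 870, 294 and 836 in the controls, against 848, 717 and 874 after knockdown, with an edgeR log2 fold change of 0.15 ± 0.12 that became -0.03 ± 0.12 when only library size was used.

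The tables divided Gata2 between its 2 starts in different ways. By FPKM, the transcript of the distal start was listed at 0 in all controls and in shCTCF replicate 3, and at 76.3 and 61.6 FPKM in shCTCF replicates 1 and 2. By counts, fragments particular to it were present in every sample and made up 18.0, 19.0 and 19.3% of the gene's counts in the controls, against 23.2, 21.5 and 22.7% in the shCTCF samples. The shares of the groups did not overlap, but the exact 95% intervals of single samples did (14.7 to 24.0% in control replicate 2, 20.4 to 26.2% in shCTCF replicate 1). The apparent appearance of the distal transcript in the FPKM table was thus not seen in the counts.

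Fli1 encodes an ETS factor of stem cells and megakaryocytes, at chr9:32229789-32349037 on the minus strand. Its FPKM were 55.1, 51.5 and 50.2 in the controls, compared with 48.2, 49.7 and 46 in the shCTCF samples, and its counts were 2113, 536 and 2048 against 1661, 1572 and 1870. The FPKM did not overlap, with a lowest control of 50.2 and a highest shCTCF sample of 49.7. The log2 fold change was -0.12 ± 0.07 on deposited FPKM, 0.06 ± 0.07 after the scaling to the same median and 0.05 ± 0.07 on counts, so that its direction depended on the scaling.

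Spi1 encodes PU.1, the ETS factor that drives myeloid genes, at chr2:90936835-90955916 on the plus strand. Its FPKM were 60.4, 65.3 and 65.2 in the controls, compared with 66.9, 66.6 and 64.8 in the shCTCF samples, and the groups overlapped. The means were 63.6 ± 2.82 and 66.1 ± 1.16 FPKM. Counts of 1010, 278 and 1173 in the controls, against 1037, 921 and 1129 after knockdown, gave a log2 fold change of 0.26 ± 0.08, against 0.05 ± 0.06 on FPKM and 0.09 ± 0.08 on counts scaled by library size only. Cebpa, the C/EBP factor of granulocytes, lies at chr7:35904312-35906951 on the plus strand and was listed at 0 in every sample of both tables.

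Ikzf1 encodes Ikaros, a zinc finger factor of lymphoid development, at chr11:11585928-11672929 on the plus strand. Its FPKM were 95.7, 80.7 and 91.7 in the controls, compared with 69.5, 70.5 and 71.5 in the shCTCF samples, which were all lower. The means were 89.4 ± 7.76 and 70.5 ± 0.986 FPKM, and the log2 fold change was -0.33 ± 0.08. After the scaling to the same median it was -0.15 ± 0.07. Of its 6 RefSeq transcripts, 3 had FPKM above 0. The transcript with 7 exons of the proximal start was at 15.7 and 15.1 FPKM in control replicates 1 and 3 and listed at 0 in the other 4 samples, and when the row with the highest mean stood for the gene the log2 fold change was -0.11.

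Mitf encodes a helix-loop-helix factor of mast cells and melanocytes, at chr6:97757052-97971352 on the plus strand. Its summed FPKM were 19.1, 13.6 and 19.1 in the controls, compared with 15.8, 16 and 17.6 in the shCTCF samples, and the groups overlapped. The log2 fold change of the sum was -0.05 ± 0.13. The melanocyte genes, 8 in number and including Tyr and Tyrp1, were listed at 0 FPKM in every sample, although Pmel had 4, 1 and 4 counts in the controls, against 6, 11 and 9 after knockdown.

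Below the sum, the FPKM of Mitf were divided differently among its 3 starts. The transcript of the most distal start was at 2.37, 3.15 and 2.23 FPKM in the controls and 8.59, 10.3 and 7.89 FPKM in the shCTCF samples. The counts particular to it were 1, 3 and 6 in the controls, against 13, 8 and 10 after knockdown, but per total counts they overlapped, at 0.152, 1.78 and 0.852 CPM in the controls and 2.21, 1.5 and 1.47 CPM in the shCTCF samples. The higher level of this transcript thus rests on FPKM. The transcript of the middle start was at 16.8, 10.5 and 16.9 FPKM in the controls and 7.17, 5.75 and 0 FPKM in the shCTCF samples, and had no counts of its own in any sample. The transcript of the proximal start had 9.76 FPKM in shCTCF replicate 3 and was listed at 0 in the other 5 samples. The counts particular to it were 0, 0 and 5 in the controls, against 1, 0 and 0 after knockdown, with none in the sample that had its FPKM, so the tables differ on the middle and proximal starts.

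**Figure D3:**
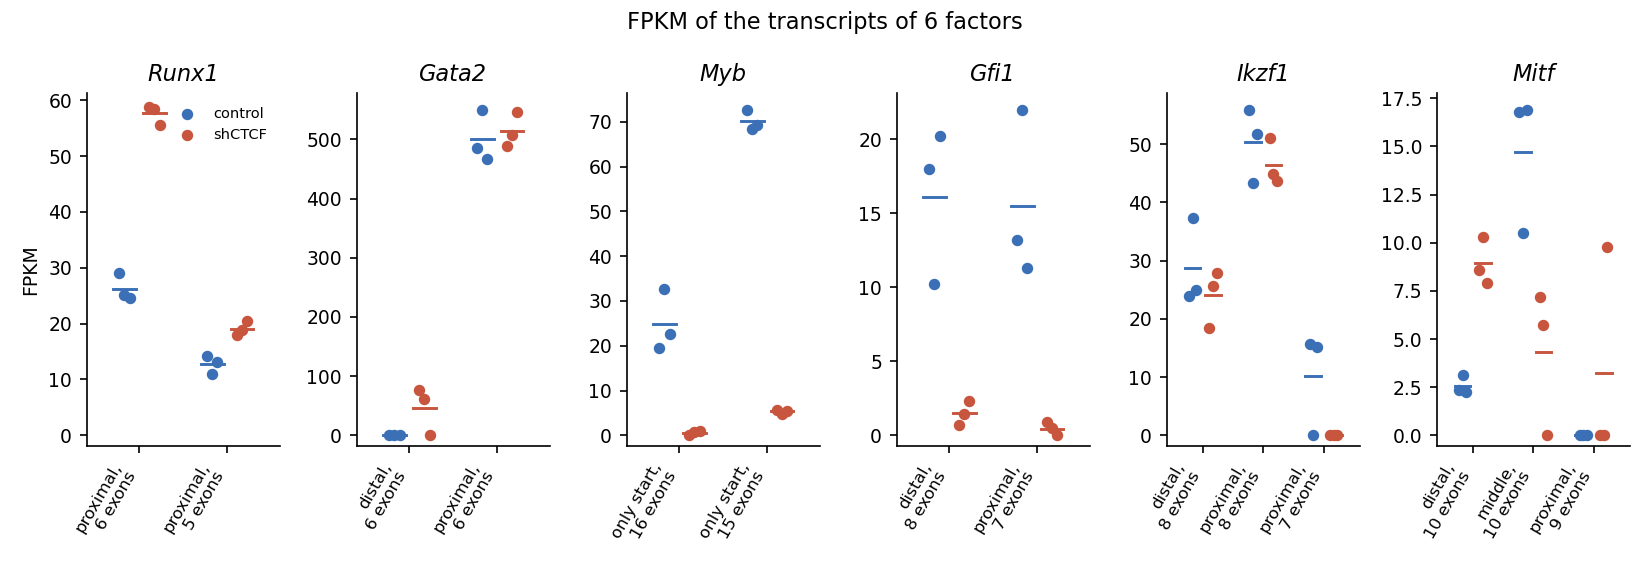
FPKM of the RefSeq transcripts of 6 factors, on a linear axis of its own for each gene, with control samples in blue and shCTCF samples in red. Lines are group means, and transcripts under 10% of their gene are left out except the distal one of Gata2. Both transcripts of Myb and of Gfi1 lie lower in all shCTCF samples, and the distal transcript of Mitf lies higher (2.23 to 3.15 against 7.89 to 10.3 FPKM).

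The genes of the same network were examined next, to see which relatives of the factors differed as well. They were 93 genes in 3 lists (31 paralogues, 23 partner proteins and 39 other blood transcription factors), of which 57 passed the limit of 1 FPKM. Of these 30 were lower and 17 higher in the shCTCF samples by limma, with a median log2 fold change of -0.27, beside -0.17 for all genes, of which 44.2% were lower and 28.8% higher. On counts, 35 could be tested and 17 were lower and 13 higher, beside 34.3% and 34.8% of all genes. After scaling to the same median the FPKM calls were 25 lower and 20 higher, beside 36.2% and 34.9% of all genes. These 3 pairs of shares are the background for the lists that follow. Of the genes named there, Gfi1b, Mybl1, Cebpb, Tcf12, Chd4 and Nfatc1 could not be tested on counts and rest on FPKM alone. The same holds for the markers Arhgdib, Adgre1, Tpsab1, Hba-a1, Ly6a, Kit, Csf2rb, Il7r, Etv5, Pdgfrb, Dcn and Fn1.

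Among the paralogues, 12 of 21 tested fell and 6 rose (44.2% and 28.8% over all genes), with a median log2 fold change of -0.48 (10 and 8 after the scaling). Lyl1, a helix-loop-helix factor close to Tal1, fell with the largest fold of this list, from 74.5 ± 11.5 to 5.89 ± 0.946 FPKM (log2 fold change -3.45 ± 0.14, adjusted p = 5.6e-07). Its counts were 1588, 523 and 1911 in the controls, against 125, 113 and 133 after knockdown, far apart at good depth. The TAL family summed to 93.4 ± 11.4 FPKM in the controls and 15.5 ± 0.384 FPKM in the shCTCF samples, of which Tal1 made up 20.2% and 61.9%.

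Gfi1b, the paralogue of Gfi1 known in red cells and platelets, fell from 7.49 ± 1.08 to 1.23 ± 0.208 FPKM (log2 fold change -1.92 ± 0.13, adjusted p = 7.3e-06), and had 0 counts in all samples. Of the MYB family, Mybl1 rose from 2.33 ± 0.871 to 9.71 ± 0.597 FPKM (1.72 ± 0.19, adjusted p = 9.6e-05), but did not reach the level Myb had in the controls. Mybl2, the third member, fell from 10 ± 1.08 to 5.31 ± 0.65 FPKM (-0.80 ± 0.12, adjusted p = 4.1e-04) and on counts (-0.70, adjusted p = 1.8e-04). The family summed to 107 ± 5.31 FPKM in the controls and 20.9 ± 1.45 FPKM in the shCTCF samples, with 88.5% and 28.3% from Myb.

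In the RUNX family, where Runx1 was higher, both paralogues fell. Runx2, the factor of bone, fell from 32.4 ± 3.75 to 8.79 ± 0.741 FPKM (log2 fold change -1.77 ± 0.10, adjusted p = 3.2e-06), and Runx3, known in lymphocytes, fell from 77.2 ± 9.81 to 43.7 ± 0.253 FPKM (-0.80 ± 0.09, adjusted p = 1.2e-04). On counts Runx3 fell as well (-0.60, adjusted p = 3.4e-05), and Runx2 did not pass (-0.57, adjusted p = 0.095). Runx1 made up 27.4% of the summed RUNX FPKM in the controls and 59.4% in the shCTCF samples, while the sum went from 151 ± 10.1 to 129 ± 1.52 FPKM. These family sums rest partly on the chosen factors and were not tested.

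Of the C/EBP family, Cebpb, the stress-responsive factor of macrophages, rose from 75.1 ± 7.51 to 154 ± 9.22 FPKM (log2 fold change 1.02 ± 0.09, adjusted p = 2.0e-05). Cebpb had 0 counts in all samples, so this rests on FPKM alone. By listed FPKM it was the highest C/EBP gene in both groups, while Cebpa was listed at 0. Cebpg fell from 34.9 to 15.6 FPKM (-1.10 ± 0.17) and on counts (-0.98). Among the ETS paralogues Elf1, named after its values were seen, gave opposite calls in the tables, with a log2 fold change of -1.03 on FPKM (74.6 to 36.1 FPKM) and 1.01 on counts, where it had 9 to 28 counts in the controls, against 34 to 45 after knockdown.

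**Figure D4:**
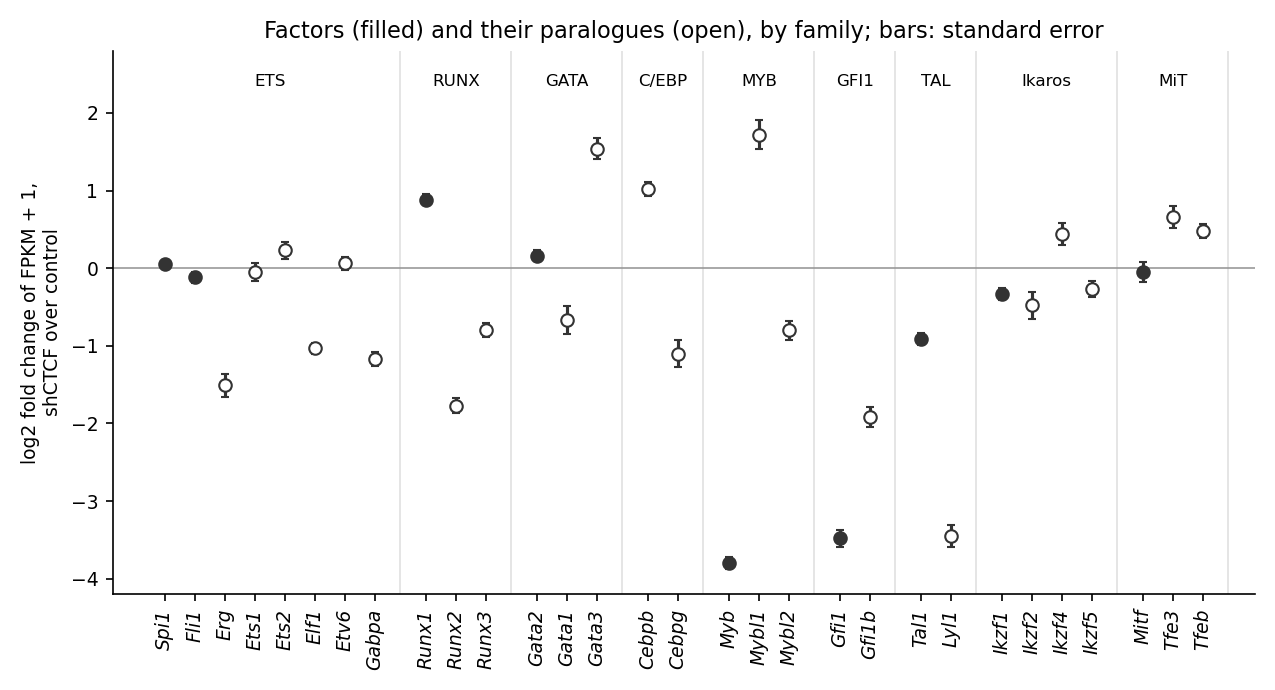
Log2 fold change of FPKM + 1, shCTCF over control, for the 9 detected factors (filled) and their tested paralogues (open), arranged by family, with standard errors as bars. Lyl1 lies at -3.45 beside Tal1 at -0.91, and Runx2 and Runx3 lie below 0 while Runx1 lies at 0.88.

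Of the partner proteins, 12 of 18 tested fell and 0 rose by limma (44.2% and 28.8% over all genes), 0 rose at an unadjusted p under 0.05 as well, and the median log2 fold change was -0.61. After the scaling 10 fell and 1 rose, and on counts 6 of 8 tested fell and 1 rose. Cbfa2t3, which encodes the ETO2 corepressor of the TAL1 complex, fell from 10.3 ± 1.37 to 0.948 ± 0.0604 FPKM (log2 fold change -2.53 ± 0.12, adjusted p = 9.7e-07). Its shCTCF mean was under 1 FPKM, so it passed the limit only through the controls, which fixed its direction in advance. Tcf12, an E protein that pairs with TAL1, fell from 45.5 ± 2.37 to 13.7 ± 1.43 FPKM (-1.67 ± 0.09, adjusted p = 2.3e-06). Zfpm1, the GATA cofactor FOG1, fell from 38.5 ± 4.71 to 12.8 ± 0.989 FPKM (-1.52 ± 0.10, adjusted p = 7.1e-06), and Rcor1, a CoREST subunit that binds GFI1 with KDM1A, fell from 35.1 ± 0.684 to 12.1 ± 0.511 FPKM (-1.46 ± 0.07, adjusted p = 1.1e-06). Chd4, the partner with the highest level in the controls, fell from 130 ± 11.1 to 69.9 ± 3.02 FPKM (-0.88 ± 0.08), and Ldb1, which bridges GATA and TAL1 complexes, was at 93 ± 11.8 and 78.1 ± 4.21 FPKM (-0.24 ± 0.10, adjusted p = 0.0502).

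Of the other blood factors, 11 of 18 tested rose and 6 fell (28.8% and 44.2% over all genes), with a median log2 fold change of 0.72, and 21 of the 39 stayed under 1 FPKM in every sample. Among those that rose, Id3 had a control mean of 0.256 FPKM and passed the limit only through the shCTCF samples. The direction of Id3 was thus fixed in advance. Klf6, a zinc finger factor of inflammatory macrophages, rose from 62.4 ± 5.45 to 345 ± 11.2 FPKM (log2 fold change 2.45 ± 0.08, adjusted p = 1.6e-07), Klf2 from 1.19 ± 0.526 to 11.3 ± 0.975 FPKM (2.51 ± 0.17) and Id2, an inhibitor of E proteins, from 112 ± 4.15 to 306 ± 5.07 FPKM (1.44 ± 0.06, adjusted p = 4.1e-07). Nfatc1 rose from 126 ± 13.4 to 194 ± 10.7 FPKM (0.62 ± 0.09). Nfe2, a factor of platelet formation, fell from 31.5 ± 1.93 to 1.88 ± 0.108 FPKM (-3.49 ± 0.09, adjusted p = 5.9e-08), and Hlf, a stem cell factor, from 12.8 ± 0.807 to 1.06 ± 0.0947 FPKM (-2.75 ± 0.10, adjusted p = 2.9e-07).

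The markers of blood lineages were read beside the factors, without a test of any link. Of 96 such genes, 45 were tested on FPKM, and 23 rose and 13 fell, against 28.8% and 44.2% of all genes. Lyz2, Mpeg1, Tpsab1, Hba-a1, Ly6a and Slamf1 had control means under 1 FPKM. They passed the limit only through the shCTCF samples, which fixed their direction in advance. On counts 20 rose and 9 fell of 37, against 34.8% and 34.3%. The pan-leukocyte genes were divided, with 6 risen and 8 fallen of 20 (8 and 8 after the scaling). Laptm5 rose from 181 ± 8.25 to 458 ± 10 FPKM, Fcer1g, the Fc receptor gamma chain, from 98.6 ± 18.5 to 282 ± 5.64 FPKM, and Cd53 from 62.3 ± 27 to 132 ± 6.87 FPKM, while Arhgdib fell from 800 ± 44.8 to 517 ± 31.9 FPKM, Lcp1 from 390 ± 6.23 to 248 ± 5.04 FPKM and Was, a regulator of actin, from 35.1 ± 1.63 to 11.9 ± 0.748 FPKM. On counts Lcp1 did not pass (log2 fold change -0.69, adjusted p = 0.102).

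Mast cell and basophil genes were uneven. Of 16, 10 were tested, 5 rose and 2 fell, and Fcer1a and Mrgprb2 were listed at 0. Hdc, the histamine-forming enzyme, rose from 4.25 ± 0.219 to 87.2 ± 7.58 FPKM (log2 fold change 4.07 ± 0.09, adjusted p = 2.7e-08) and Tph1, of serotonin synthesis, from 219 ± 11.3 to 612 ± 27.2 FPKM. Cpa3, a granule carboxypeptidase, fell from 281 ± 56.7 to 88 ± 13.1 FPKM and Slc18a2, the vesicular amine transporter, from 30.2 ± 7.37 to 4.62 ± 0.436 FPKM. Gata2 and Mitf, the factors known in mast cells, overlapped between the groups as given above.

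Of the 13 macrophage and monocyte genes 4 were tested and all 4 rose, with Cd68 at 44.7 ± 4.66 and 137 ± 7.64 FPKM, Adgre1 at 56.7 ± 0.661 and 73.7 ± 10.4 FPKM, Lyz2 at 0.0274 ± 0.0475 and 3.29 ± 0.731 FPKM and Mpeg1 at 0.0683 ± 0.0415 and 2.49 ± 0.24 FPKM. Lyz2 and Mpeg1 passed the limit only through their shCTCF values, so their direction was fixed in advance. The other 9 of the 13 genes stayed under 1 FPKM, among them C1qa, C1qb and Ms4a7, which were listed at 0. Of 11 neutrophil genes only Ctsg, cathepsin G, passed the limit, and it fell from 151 ± 19.4 to 2.22 ± 0.278 FPKM (log2 fold change -5.55 ± 0.11, adjusted p = 2.2e-08), with 1902, 594 and 2319 counts in the controls, against 31, 27 and 37 after knockdown.

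Of 9 erythroid and megakaryocyte genes, Itga2b, the platelet integrin, fell from 65.4 ± 9.95 to 8.61 ± 1.11 FPKM (log2 fold change -2.79 ± 0.13, adjusted p = 9.5e-07) and the globin gene Hba-a1 rose from 0.289 ± 0.237 to 4.38 ± 1.06 FPKM. The 12 lymphoid genes had 0 tested, and 11 of them stayed under 1 FPKM everywhere. Of 5 progenitor genes 2 were tested and both rose, with Ly6a (Sca-1) at 0.309 ± 0.277 and 609 ± 87.9 FPKM and Slamf1 at 0.645 ± 0.154 and 172 ± 12 FPKM. Like Hba-a1, they passed the limit only through the shCTCF samples, so their direction was fixed in advance. Under the limit, Cd34 (0.406 and 0.127 FPKM) and Procr (0.161 and 0 FPKM) were lower in every shCTCF sample than in every control. Cd34 had 0 counts in all samples and rests on FPKM alone. Procr had 3, 1 and 2 counts in the controls, against 1, 0 and 0 after knockdown, none above the floor of 3 counts. Of 10 receptor genes that blood factors are known to control, 6 were tested, 5 rose and 1 fell. Kit rose from 575 ± 35.8 to 787 ± 14.4 FPKM (0.45 ± 0.06), Csf2rb from 200 ± 18.1 to 631 ± 58.9 FPKM (1.65 ± 0.09) and Il7r from 1.68 ± 0.0912 to 43.3 ± 4.76 FPKM (4.04 ± 0.10), and Epor, the erythropoietin receptor, fell from 14.6 ± 2.6 to 2.67 ± 0.0481 FPKM (-2.08 ± 0.13).

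The germline list had 2 genes tested, of which Ifitm3, an interferon-inducible gene, rose from 0.737 ± 0.646 to 10.8 ± 0.327 FPKM and Etv5 fell from 17.3 ± 0.569 to 14.2 ± 0.194 FPKM. Etv5 lost its call after the scaling. In the fibroblast list 3 genes rose and 3 fell of 6 tested, with Col6a1 at 0.144 ± 0.0488 and 15.3 ± 0.38 FPKM and Pdgfrb at 6.09 ± 0.799 and 2.16 ± 0.146 FPKM. Dcn was at 2.71 ± 0.107 FPKM in the controls and listed at 0 in the shCTCF samples. Fn1 was at 2.22 ± 0.111 and 0.0266 ± 0.00288 FPKM. Ifitm3, Col6a1 and Thy1, the last also among the risen fibroblast genes, passed the limit only through the shCTCF samples, and Dcn and Fn1 only through the controls. The part of feeder cells in the levels of the blood factors was not tested.

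Since CTCF acts on chromatin over distance, the nearest tested gene on each side of every factor was compared. The distances between factor and neighbour ran from 13.2 kb (for Tal1) to 2550 kb (for Ikzf1), and a neighbour of Fli1 was 1001 kb away. Of the 20 neighbours, 9 fell and 5 rose (44.2% and 28.8% over all genes), with a median log2 fold change of -0.12. After the scaling 4 fell and 5 rose. The neighbours of Myb, Ahi1 and Hbs1l, were at -0.10 ± 0.09 and -0.07 ± 0.09 and did not pass (adjusted p = 0.325 and 0.465), although Hbs1l was called lower on counts (-0.95, adjusted p = 0.0115). Those of Gfi1 were called in opposite directions, Rpap2 at -0.49 ± 0.10 and Evi5, 19 kb away, at 0.43 ± 0.15. None of these 4 genes had a difference near that of Myb or Gfi1. Ahi1 and Rpap2, like Slc39a13 and Stil below, could not be tested on counts and rest on FPKM alone.

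The neighbours with the largest differences on deposited FPKM were Rcan1, Slc39a13, Cebpg and Eefsec. Rcan1, the neighbour of Runx1 at a distance of 135 kb, rose from 9.31 to 22.8 FPKM (log2 fold change 1.21 ± 0.07, adjusted p = 3.2e-06), in the direction of Runx1. Setd4, 757 kb away on the other side, was at -0.02 ± 0.16 (adjusted p = 0.93). Slc39a13, 26.4 kb from Spi1, rose from 6.49 to 16 FPKM (1.19 ± 0.12), and Cebpg, 62.7 kb from Cebpa, fell from 34.9 to 15.6 FPKM (-1.10 ± 0.17). Eefsec, 50.3 kb from Gata2, fell from 14.8 to 8.6 FPKM (-0.72 ± 0.10), but did not pass on counts (-0.42, adjusted p = 0.177). The neighbours of Tal1 were called in opposite directions. Stil, 13.2 kb away, fell (-0.64 ± 0.09, adjusted p = 4.0e-04), and Efcab14, 666 kb away, rose from 7.52 to 12.9 FPKM (0.71 ± 0.08, adjusted p = 1.3e-04) and on counts (0.98, adjusted p = 1.7e-06). Relative to the median of all genes, Efcab14 was at 0.88 and Eefsec at -0.54, so the place of Eefsec among the 4 depended on the scaling.

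**Figure D5:**
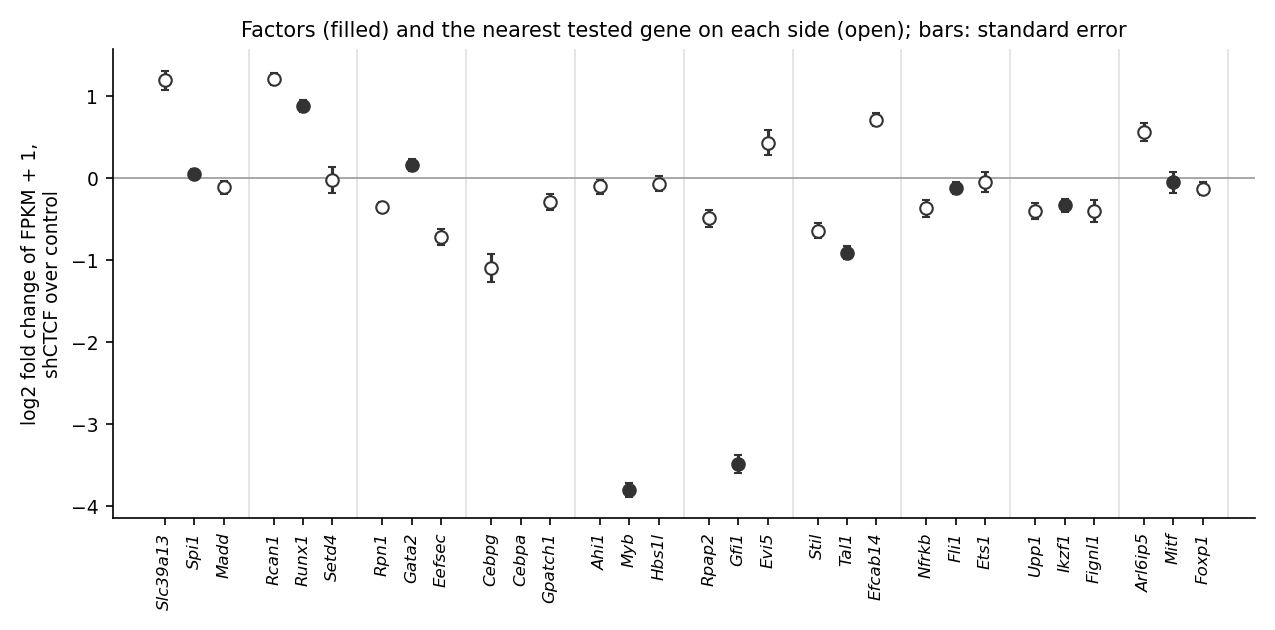
Log2 fold change of FPKM + 1, shCTCF over control, for each factor (filled) and the nearest tested gene on either side (open), with standard errors as bars, and Cebpa was not tested. Myb (-3.80) and Gfi1 (-3.48) lie far below their neighbours, and Runx1 (0.88) and Rcan1 (1.21) lie above 0 together.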

How the data were processed

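RNA-seq libraries (stranded mRNA kit) of 3 control and 3 shCTCF samples were aligned by the authors to mm9 with HISAT2 (version listed as 4.8.2 in the submitters' processing notes). The authors' FPKM came from Cufflinks 2.2.1 with RefSeq transcripts, and the deposited counts are whole fragments per transcript from featureCounts 1.6.2 without strand, unnormalized. Transcripts were given symbols with the RefSeq table of GRCm38.p6, used for names only (41181 of 41388 in the counts, 41680 of 41876 rows in the FPKM), and values were summed per symbol. Unmatched transcripts held at most 0.622% of a sample's counts.

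Genes whose mean reached 1 FPKM were tested with limma 3.58.1 (eBayes with trend) on log2(FPKM + 1), a scale that understates the change of low genes, and counts with edgeR 4.0.16 (quasi-likelihood, TMM, filterByExpr, R 4.3.3). A gene whose mean was under 1 FPKM in 1 group passed only through the other group, so its direction followed from the limit. P-values are two-sided and Benjamini-Hochberg adjusted over all genes tested, with 0.05 as threshold. Both fits were tested on simulated data. Totals of 1686052 to 7044272 counts set the precision, and floors and intervals (exact binomial) cover counting error only.

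Windows around starts were read from NCBIM37, the same build as mm9. Members and lists were chosen with earlier results of these data known. Named list genes are up to 4 of the largest log2 fold changes among called genes whose groups did not overlap, and 2 of highest control FPKM, per list (neighbours: 4). Germline and fibroblast markers used for the label check, the remaining neighbours of Myb, Gfi1, Tal1 and Runx1, Mybl2, Pmel, Elf1, Id3 and Procr fall outside that rule and were named after their values were seen. Alternatives were other pseudocounts, filters, scalings, DESeq2 1.42.0, the row of highest FPKM, a replicate block and each replicate left out.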

Additional observations from a re-analysis of the deposited data

How the results depend on the processing

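The replicate numbers did not pair the samples: samples that share a number deviated from their groups with correlations of -0.041, 0.018 and 0.0395. With a replicate block, 4310 genes were called lower and 2826 higher on FPKM (4405 and 2875 without it), the median of the factors stayed at -0.12, and no call of a factor changed. Scaling each sample to the same median gave 3606 genes lower and 3480 higher. It moved the median log2 fold change of the factors to 0.06, quantile normalization moved it to 0.00, and without 1 replicate it ranged from -0.20 (without control replicate 2) to -0.08. On counts the median was 0.05 over the 5 factors tested there, which had -0.12 on FPKM. Fli1 changed sign under the scaling, quantile normalization and on counts (0.06, 0.02 and 0.05). The neighbours called lower numbered 4 after the scaling, 5 after quantile normalization, 5 with the row of highest FPKM and 3 on counts, instead of 9. With the row of highest FPKM, Mitf was at -2.01, since its middle start alone then stood for the gene. The cause of the other changes was not tested. On FPKM, Myb (-4.01 to -3.49), Gfi1 (-4.04 to -2.79), Tal1 (-0.98 to -0.74) and Runx1 (0.81 to 1.11) kept their sign under every alternative. On counts Myb (-4.76 to -4.32) and Gfi1 (-4.21 to -3.62) did so too, Runx1 had none, and Tal1 was at 0.02 ± 1.37 in the 1 fit that held it. In control replicate 2, the smallest library, 3 counts stood for 1.779 CPM, which limits what can be read from low counts.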
